A study of Mus musculus with 287 samples.

Results

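N clones of 6 cells or fewer were compared with N clones of 7 cells or more, among the labelled clones of mouse cerebral organoids. The clones were chosen by their labels and by cell quality: clone type N, cells with an exon count above 0 in at least 1000 genes, and at least 2 such cells per clone. That left 20 of the 22 N clones, in a series whose other labelled clones are 46 of type SN. The 10 small clones held 38 of the 46 cells labelled to small N clones and had labelled sizes of 4 to 6 (median 5). The 10 large clones held 76 of the 91 cells labelled to large N clones and had sizes of 7 to 19 (median 9.5). Clones 35 (small) and 28 (large) had a single kept cell each and were left out.

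The study drew single fluorescent cells of located clones out of the tissue with a glass pipette and sequenced each by Smart-seq3, a full-length RNA method for single cells. Every group shared the genotype MADM-11GT/TG;Emx1-CreER+/-, in which a tamoxifen-dependent Cre is expressed from Emx1, a gene of dorsal forebrain progenitors. Every group also shared the treatment, which was 60 nM 4-hydroxytamoxifen given on day 13, with organoids taken on day 20. For each cell the labels give a plate, clone, colour, clone size and clone type (SN or N). They do not say what SN and N stand for, nor which organoid or culture a clone came from, so clones of 1 group may share an organoid and p-values measure only the spread between clones. The collection protocol speaks of neurons being drawn up.

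Mosaic analysis with double markers (MADM) rejoins 2 split reporter genes when Cre recombines the homologous chromosomes of a dividing cell, so that the daughters and their descendants can be followed as a green and a red lineage. In the developing cortex, radial glia divide at the ventricle to renew themselves and to produce intermediate progenitors and neurons, deep layer neurons before upper layer neurons and glia last. The number of cells in a clone depends on how often the recombined cell's descendants divided, and on how many of them survived and were found.

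The clone sums differed in depth along with clone size. Summed exon counts ran from 160996 to 23326336 in small clones (median 9108698.5) and from 11931784 to 47568127 in large clones (median 22611455). Small clones held 2 to 5 kept cells (median 4) and large clones 2 to 16 (median 7). The plates were unequally filled: 2, 2 and 6 small clones and 3, 5 and 2 large clones lay on plates 1, 2 and 3. Clone 59, a small clone of size 4 with 2 kept cells, had the lowest sum, at which 3 counts correspond to 18.6 counts per 1000000 (CPM), whereas 3 counts were at most 0.50 CPM in each of the other clones. Stmn2, a gene of young neurons, was counted in 75 of 76 cells of large clones and 36 of 38 cells of small clones. Fabp7, a gene of radial glia, was counted in 74 of 76 and 35 of 38 cells, so genes of neurons and of radial glia were counted side by side in nearly all cells.

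No gene passed the test between large and small clones. Of 11232 genes tested with edgeR's quasi-likelihood test on exon counts summed per clone, with plate as a term and Benjamini-Hochberg adjustment, 0 had an adjusted p under 0.05, which is 0% of them. At an unadjusted p under 0.05, 354 genes (3.15%) were higher and 80 genes (0.712%) were lower in large clones. No gene had every large clone above every small clone, and no gene had every large clone below every small clone. At least 8 of the 10 large clones lay above the small clones' median in 26.8% of the tested genes and below it in 10.8%, which is the background for such counts of clones in what follows. No such background is given for counts of large clones above or below every small clone. The leading genes were picked by p from these same clones, so their counts of clones follow in part from that choice. The median standard error (SE) of the log2 difference was 0.99 over all tested genes and 0.44 over genes with a mean above 100 CPM, so for most genes a difference of 1 log2 unit was not detectable with 10 clones a group. Without clone 59, 397 genes (3.35%) were higher and 1.17% of the tested genes were lower, and it was the only clone whose removal moved either number by over 1.5 times. Limma-voom on the same sums also called 0 genes, with 649 genes (5.78%) higher and 200 (1.78%) lower at an unadjusted p under 0.05. DESeq2 called 208 genes (1.85%), 186 higher (1.66%) and 22 lower (0.196%) in large clones. All 208 had the same sign in edgeR and 67.3% of them had an unadjusted edgeR p under 0.05. Both methods fitted the same sums, so this agreement is largely built in. Without the filter on low counts edgeR called 15 of 35584 IDs (0.0422%). The genes called by DESeq2 were counted in a median of 29 cells, against 49 cells for all tested genes.

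The genes with the smallest p on the higher side were led by Gphn, which encodes gephyrin, the scaffold of inhibitory synapses and an enzyme of molybdenum cofactor synthesis. Gphn (ENSMUSG00000047454) had 28.7, 73.6 and 225 CPM (lowest, median and highest clone) in large clones and 3.93, 21.9 and 43.7 CPM in small clones. In 8 of 10 large clones Gphn lay above every small clone, and the other two lay within the small clones' range. The log2 difference was 2.45 ± 0.57 (SE; unadjusted p = 0.000199), and it was 2.19, 2.54 and 2.49 on plates 1, 2 and 3. It was 2.50 without clone 16, 3.03 with 3 cells per clone, and 0.40 in intron counts. DESeq2 called Gphn with an adjusted p of 0.000319.

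Rac3, a small GTPase of the Rac family expressed in developing neurons, had 102.2, 209.5 and 751 CPM in large clones and 11.4, 71.7 and 223 CPM in small clones. All 10 large clones lay above the small clones' median and 4 lay above every small clone. Its log2 difference was 1.75 ± 0.45, with 1.93, 0.53 and 2.69 on the 3 plates, and it was -0.32 in intron counts. Ndfip2, an adaptor of Nedd4 ubiquitin ligases, had 11.4, 48.0 and 345 CPM in large clones against 4.63, 25.9 and 43.6 CPM in small clones, with 7 large clones above every small clone. The log2 difference of Ndfip2 was 2.07 ± 0.57. For March6, a ubiquitin ligase of the endoplasmic reticulum, the ranges overlapped more: 46.4, 99.8 and 969 CPM against 9.47, 61.0 and 157 CPM. Its log2 difference of 1.93 ± 0.48 took the values 0.15, 2.33 and 2.81 on the 3 plates in turn, and it was -0.90 in intron counts.

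Nrsn1, a vesicle membrane protein of neurites, had 0.37, 18.0 and 59.7 CPM in large clones and 0, 0 and 4.31 CPM in small clones, of which 6 were at 0. It was counted in 17 of 76 cells of large clones and in 5 of 38 cells of small clones, and its log2 difference was 6.04 ± 1.68. Lman2l, a cargo receptor of the secretory pathway, had 6.14, 30.6 and 183 CPM against 0, 6.03 and 82.9 CPM. Every large clone was above the small clones' median for Nrsn1 and Lman2l, and the ranges overlapped for both. Fam163b had 1.17, 6.62 and 204 CPM in large clones and 0, 0 and 31.8 CPM in small clones, of which 6 were at 0. Only 1 large clone lay above every small clone for Fam163b. Nr4a1, an immediate early nuclear receptor, had 0.36, 6.40 and 479 CPM in large clones and 0, 0.37 and 58.9 CPM in small clones. Its log2 difference was 4.04 ± 1.10 and was positive on each plate (5.64, 3.31 and 3.76). Gm45477 and 4930430F08Rik completed the 10 genes, with log2 differences of 5.50 ± 1.53 and 4.58 ± 1.28. For Gm45477 6 of 10 large clones lay above the small clones' median and 2 large clones were at 0, while for 4930430F08Rik all 10 lay above it. In the highest clone of each, 1 cell gave 95.7% of the counts of Gm45477 and 97.3% of those of 4930430F08Rik. Whether the authors' counting used strand is not given in the sources used here, so reads of a gene and of genes that overlap it cannot be told apart.

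On the lower side the smallest p belonged to Pcdhgc4, a clustered gamma-protocadherin of the neuronal surface. Pcdhgc4 (ENSMUSG00000023036) had 0.075, 0.54 and 9.26 CPM in large clones and 0, 13.2 and 106.1 CPM in small clones. All 10 large clones lay below the small clones' median, while 2 small clones lay within the range of the large ones and clone 59, at 0, lay below it. The log2 difference was -4.41 ± 1.29 (unadjusted p = 0.0021). Genes of this cluster share their last exons, and reads could be split between them, so this value is uncertain.

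Poldip3, an RNA-binding protein that takes part in mRNA export, had the smallest SE of the 10 lower genes. It had 2.28, 32.7 and 39.8 CPM in large clones and 31.0, 75.4 and 204 CPM in small clones. All 10 large clones lay below the small clones' median and 4 below every small clone. The log2 difference was -1.54 ± 0.53, with -1.68, -1.88 and -1.21 on the 3 plates and -1.47 in intron counts. Zc3h12c, a ribonuclease of the Regnase family, had 0.23, 7.35 and 31.4 CPM against 11.6, 47.8 and 322 CPM, with 7 large clones below every small clone. Its log2 difference was -2.35 ± 0.86. Ankrd52, a regulatory subunit of protein phosphatase 6, had 1.04, 7.37 and 25.2 CPM against 3.71, 51.7 and 116.6 CPM, and Rnmt, the mRNA cap methyltransferase, had 18.0, 39.0 and 95.1 CPM against 9.35, 105.7 and 296 CPM. For both genes every large clone was below the small clones' median, with log2 differences of -2.35 ± 0.82 and -1.51 ± 0.54. The other 5 genes were Ddx28 (-5.93 ± 1.81), Ift43 (-2.20 ± 0.73), Ccdc9 (-2.06 ± 0.76), Pcmtd2 (-2.28 ± 0.85) and Muc1 (-3.90 ± 1.45). None of these lower genes reached an adjusted p under 0.05 in edgeR.

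**Figure D1:**
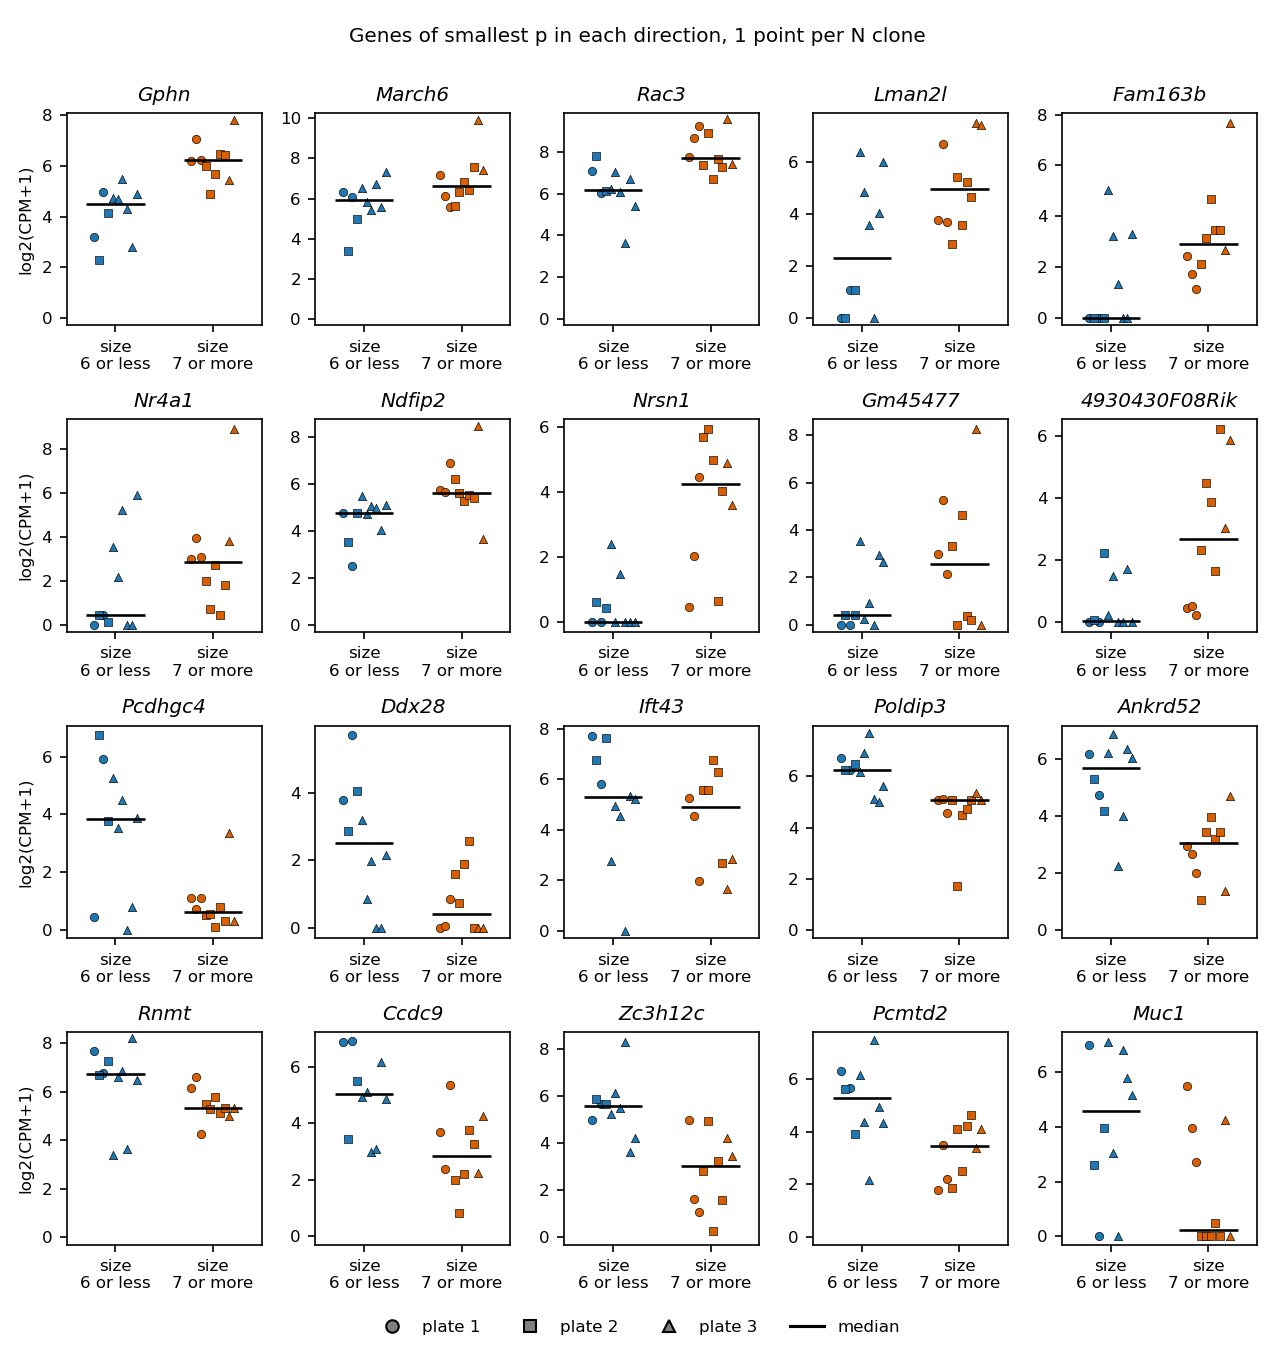
Level of the 10 genes of smallest p in each direction, as log2(CPM+1) of the exon counts summed per clone; each point is 1 clone, its shape the plate, and the line the median of 10 clones. The groups overlap in every panel. For Gphn 8 of 10 large clones lie above every small clone, and for Zc3h12c 7 of 10 lie below every small clone. The genes were picked by p from these same clones, so such counts follow in part from that choice.

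Single cells supplied much of these values. In the clone with the highest level of each of the 39 named genes, 1 cell held a median of 70.7% of that gene's counts (range 25.1% to 100%), and in 32 of 39 genes it held over 50%. For Rac3 that cell lay in clone 45 and held 80.9% of the clone's counts, and for March6 a cell of the same clone held 78.7%. For Nr4a1 a cell of clone 68 held 72.9% and only 2 of its 7 cells had a count. For Pcdhgc4 a cell of clone 26 held 99.8%. Gphn was less concentrated, with 46.0% from 1 cell of clone 68 and a count in 4 of its 7 cells, and it was counted in 45 of 76 cells of large clones and 20 of 38 cells of small clones.

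Without clone 16, the clone of size 19, 1 of 11395 genes passed (0.00878%), and 320 genes (2.81%) were higher and 88 (0.772%) lower at an unadjusted p under 0.05. Akr1e1 (ENSMUSG00000045410), an aldo-keto reductase, rose in large clones by 9.02 ± 1.45 on the log2 scale (adjusted p = 0.0156, edgeR). Over all 20 clones it was counted in each of the 10 large clones, at 0.29, 13.3 and 78.5 CPM (lowest, median and highest), and in 1 of 10 small clones, at 0.37 CPM. The counts came from 13 of 76 cells and 2 of 38 cells, 5978 and 7 counts in all, and in clone 21, the highest, they came from a single cell. With a count in 1 small clone, Akr1e1 could pass the filter only through the large clones, where it was higher. Its test with the filter therefore depended on that group, and its fitted fold rests on small clones near 0. With all 20 clones Akr1e1 did not pass the filter on low counts and was not tested. Without the filter it was tested over all 20 clones and was among the 15 IDs called (9.00 ± 1.75, adjusted p = 0.0029, edgeR). That fold too rests on small clones near 0. With the filter, Akr1e1 was tested in 11 of the 20 fits that left out 1 clone, with adjusted p-values of 0.0156 to 0.154. It passed in 2 of them, without clone 16 and without clone 59 (adjusted p = 0.0496). Of the clones from which 3 cells were drawn, 5 of 9 large clones and 0 of 7 small clones had a count of Akr1e1.

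Genes of radial glia were measured in both groups at overlapping levels. Fabp7, which encodes a protein that binds fatty acids in radial glia, had 756, 1558 and 3234 CPM in large clones and 21.3, 1228 and 2285 CPM in small clones, with a log2 difference of 0.47 ± 0.47. Vim, the intermediate filament vimentin, had 315, 592 and 1019 CPM against 22.7, 322 and 940 CPM, with a difference of 0.75 ± 0.42. For Vim 9 of 10 large clones were above the small clones' median, but the difference was -0.02, 0.41 and 1.55 on plates 1, 2 and 3. Of 19 tested radial glia genes 14 lay above 0. Their median difference was 0.34 on the log2 scale, where that of all tested genes was 0.21. The radial glia gene Ddah1, which degrades an inhibitor of nitric oxide synthesis, was the member with an unadjusted p under 0.05, at 1.77 ± 0.72, but in clone 45, its highest, 1 cell gave 98.3% of the counts. Of 13 tested genes of late progenitors 12 lay above 0 (median 0.47), among them the transcription factors Zbtb20 (1.20 ± 0.63), Nfib (0.37 ± 0.40) and Nfia (0.26 ± 0.54). Those 3 lay below 0 on plate 1 (-0.95, -0.87 and -1.49) and above 0 on plate 3 (2.71, 1.23 and 1.53), and the related Nfix differed by 0.04 ± 0.47. This list shares 6 genes with the radial glia list. The 5 tested genes of early progenitor timing, the RNA-binding proteins Lin28b, Igf2bp1, Igf2bp2 and Igf2bp3 and the chromatin protein Hmga1, all lay below 0, between -1.42 and -0.36, with standard errors of 0.68 to 2.26. With equal weight per cell Lin28b (0.94), Hmga1 (0.19) and Igf2bp2 (1.55) lay above 0 instead. Lin28b also differed between plates, at 3.36 on plate 1 and -5.62 on plate 3, and for Lin28b and Igf2bp2 8 of 10 large clones lay above the small clones' median. No list held a gene that passed the test.

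Genes of intermediate progenitors and of the cell cycle overlapped between the groups. Eomes, the transcription factor that marks intermediate progenitors, had 3.75, 43.4 and 118.8 CPM in large clones and 0, 17.5 and 301 CPM in small clones (log2 difference -0.49 ± 0.98). Elavl4, an RNA-binding protein of new neurons, differed by 0.01 ± 0.44 and Gadd45g, a stress and cell cycle inhibitor gene, by 0.20 ± 1.01. Of 12 tested intermediate progenitor genes 7 lay above 0 (median 0.11). Pcna and Mcm7, which act at replication forks, differed by 0.04 ± 0.61 and -0.11 ± 0.64. Hmgb2, a chromatin protein of dividing cells, had 67.6, 175.3 and 635 CPM against 0, 66.9 and 324 CPM. Every large clone lay above the small clones' median of Hmgb2, yet the plate-adjusted log2 difference was 0.44 ± 0.51. Top2a, the topoisomerase of mitosis, differed by 0.53 ± 0.73. Among S phase genes 8 of 15 lay above 0 (median 0.04) and among G2/M genes 8 of 19 (median -0.08). With 3 cells per clone both medians were lower, at -1.60 and -1.07.

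**Figure D2:**
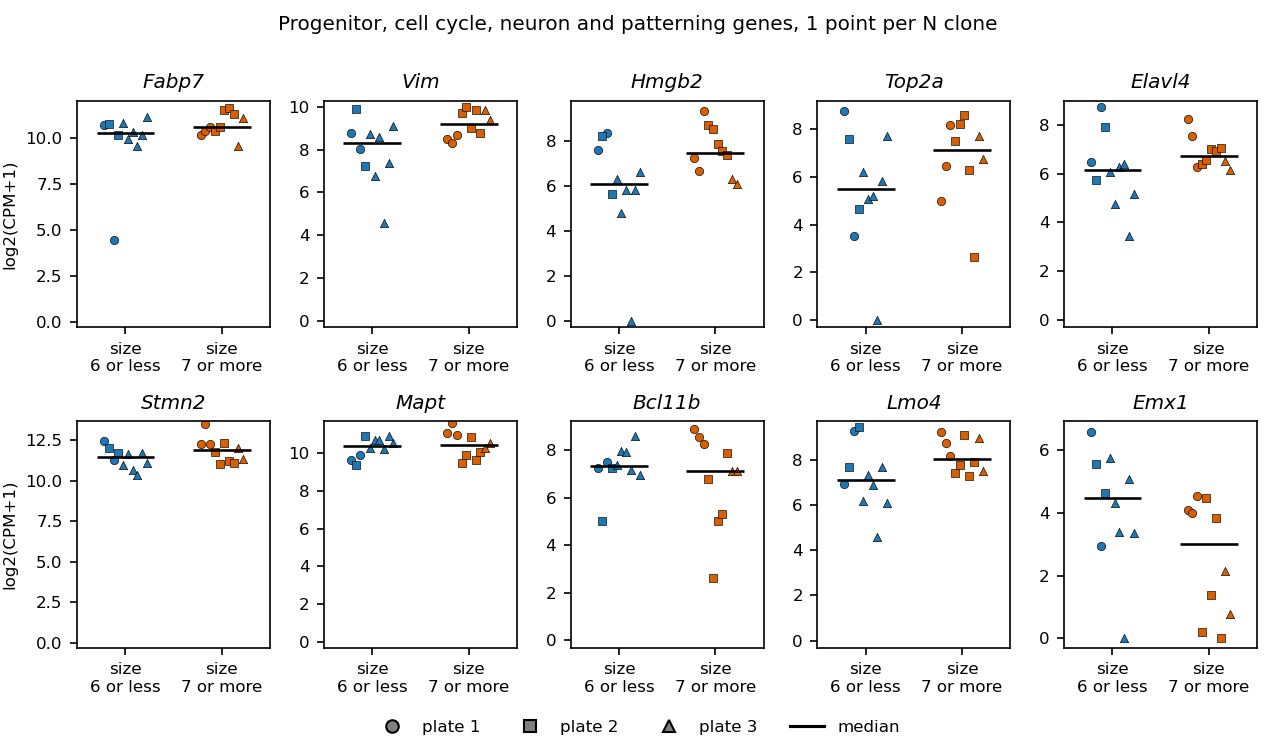
Level of 10 genes of progenitors, the cell cycle, neurons and the dorsal forebrain, as log2(CPM+1) of the exon counts summed per clone; each point is 1 clone, its shape the plate, and the line the median of 10 clones. The groups overlap in every panel, and clone 59 gives the points at 0 for Hmgb2, Top2a and Emx1 among the small clones.

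Genes of young excitatory neurons were measured in both groups at overlapping levels. Stmn2, a regulator of microtubules in growing axons, had 2128, 3758 and 11636 CPM in large clones and 1310, 2880 and 5643 CPM in small clones, with a log2 difference of 0.31 ± 0.29. Mapt, which encodes the microtubule protein tau, differed by 0.24 ± 0.32, with a 95% interval of -0.39 to 0.86. Of 12 tested genes of immature excitatory neurons 6 lay above 0 and 6 below (median 0.05). Neurod6, which encodes a bHLH transcription factor of excitatory neurons, had 82.5, 334 and 1017 CPM in large clones and 242.8, 418 and 1040 CPM in small clones. Its log2 difference was -0.78 ± 0.34 (unadjusted p = 0.0322) and was below 0 on each plate (-0.54, -0.96 and -0.83). The named layer genes differed by no more than about 1 SE. Bcl11b, a transcription factor of deep layer neurons, differed by 0.06 ± 0.55, Rprm by -0.05 ± 0.43, Lmo4 by 0.43 ± 0.43 and Lhx2 by -0.19 ± 0.52. The medians were 0.09 over 13 deep layer genes and -0.29 over 12 upper layer genes.

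Synapse genes lay above 0 in 12 of 19 cases (median 0.36) and ion channel genes in 11 of 14 (median 0.84). Gria1, an AMPA receptor subunit, had 11.6, 84.6 and 272 CPM in large clones and 13.0, 39.5 and 104.95 CPM in small clones. The log2 difference of Gria1 was 1.61 ± 0.58 over all cells, -0.11 on plate 1, and 0.31 with 3 cells per clone. Shank1, a scaffold of excitatory synapses, differed by 1.05 ± 0.49, but by -0.24 when every cell of a clone weighed the same. Gria2, another AMPA receptor subunit, differed by -0.07 ± 0.44. The ion channel median was -0.10 in intron counts and -0.11 on plate 3.

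Notch signalling, in which ligands on new neurons keep neighbouring radial glia from differentiating, gave 5 of 10 tested genes above 0 (median 0.10). The receptor Notch1 differed by 1.30 ± 1.54, the ligand Dll1 by 0.62 ± 1.23 and the target Hes5 by 1.06 ± 1.13. Notch1 was counted in 34 of 76 and 20 of 38 cells and Dll1 in 30 of 76 and 17 of 38.

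Emx1, the gene whose locus drives the Cre, had 0, 8.35 and 22.4 CPM in large clones and 0, 21.6 and 95.99 CPM in small clones. In 9 of 10 large clones Emx1 lay below the small clones' median. The small clone at 0 was clone 59, where a count of 0 allows up to 18.6 CPM of the plain clone sum. The Emx1 levels given here are per TMM-scaled clone sum, and on that scale the limit for clone 59 is lower. The log2 difference was -2.41 ± 1.17 (unadjusted p = 0.0488) with a 95% interval of -4.70 to -0.12, and it was below 0 on each plate (-1.60, -2.34 and -3.32). In intron counts it was -2.24 and with 3 cells per clone -1.16. Emx1 was counted in 23 of 76 cells of large clones and 17 of 38 cells of small clones, and all its counts in clone 12, the highest, came from 1 of 4 cells. Over 12 tested genes of dorsal forebrain patterning 4 lay above 0, with a median of -0.18.

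Genes that mark other cell types were counted in cells of both groups. Among those lists, GABAergic neuron genes summed to 5.38 to 277.4 CPM in large clones and 12.3 to 122.7 CPM in small clones, with Nkx2-1 at 0 in all clones. Mesenchyme genes summed to 37.5 to 547 CPM and 5.41 to 1788 CPM, choroid plexus and hem genes to 4.53 to 1091 CPM and 0 to 667 CPM, and microglia and endothelium genes to 0.91 to 485 CPM and 0.12 to 99.4 CPM. Blood genes summed to 1.45, 12.5 and 987 CPM (lowest, median and highest) in large clones and 0, 1.86 and 28.5 CPM in small clones, with Hbb-bt at 0 throughout. Hbb-bh1, an embryonic beta-like globin, was counted in 50 of 76 and 20 of 38 cells and differed by 3.53 ± 1.15 (unadjusted p = 0.00484), with 14 of 16 cells of clone 16 holding a count. DESeq2 called Hbb-bh1 with an adjusted p of 0.00774. Col1a1, a collagen of mesenchyme, was counted in 36 of 76 cells of large clones and 7 of 38 cells of small clones, and the imprinted RNA H19 in 55 of 76 and 15 of 38. Their log2 differences were 1.81 ± 1.69 and 1.23 ± 1.13. The part of such transcripts in the differences of other genes was not tested.

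Over the 37 gene lists, which held 399 tested genes, 26 medians lay above 0 and 11 below, and 17 lay above the median of all genes. Of the 399 genes 58.4% lay above 0, against 60.6% of all tested genes. At an unadjusted p under 0.05, 15 list genes (3.76%) were higher and 4 (1.00%) lower in large clones, against 3.15% and 0.712% of all tested genes. Beside those already named, the higher ones included the imprinted genes Ndn (0.72 ± 0.33) and Snrpn (0.95 ± 0.43), the immediate early gene Junb (2.72 ± 1.05), the axon guidance ligand Sema3c (3.40 ± 1.43), and Ndufa1 (1.09 ± 0.48) and Ndufa2 (0.93 ± 0.45) of respiratory complex I. The lower ones were Neurod6, Emx1, the semaphorin receptor gene Plxna4 (-1.07 ± 0.45) and the splicing regulator Ptbp1 (-1.96 ± 0.92). In the highest clone of each gene, 1 cell gave 89.1% of the counts of Junb and 89.3% of those of Sema3c. That share was 92.1% for Neurod6, 88.7% for Plxna4 and 82.5% for Ptbp1. It was lower for Ndn (47.1%), Snrpn (54.9%), Ndufa1 (49.2%) and Ndufa2 (36.4%).

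**Figure D3:**
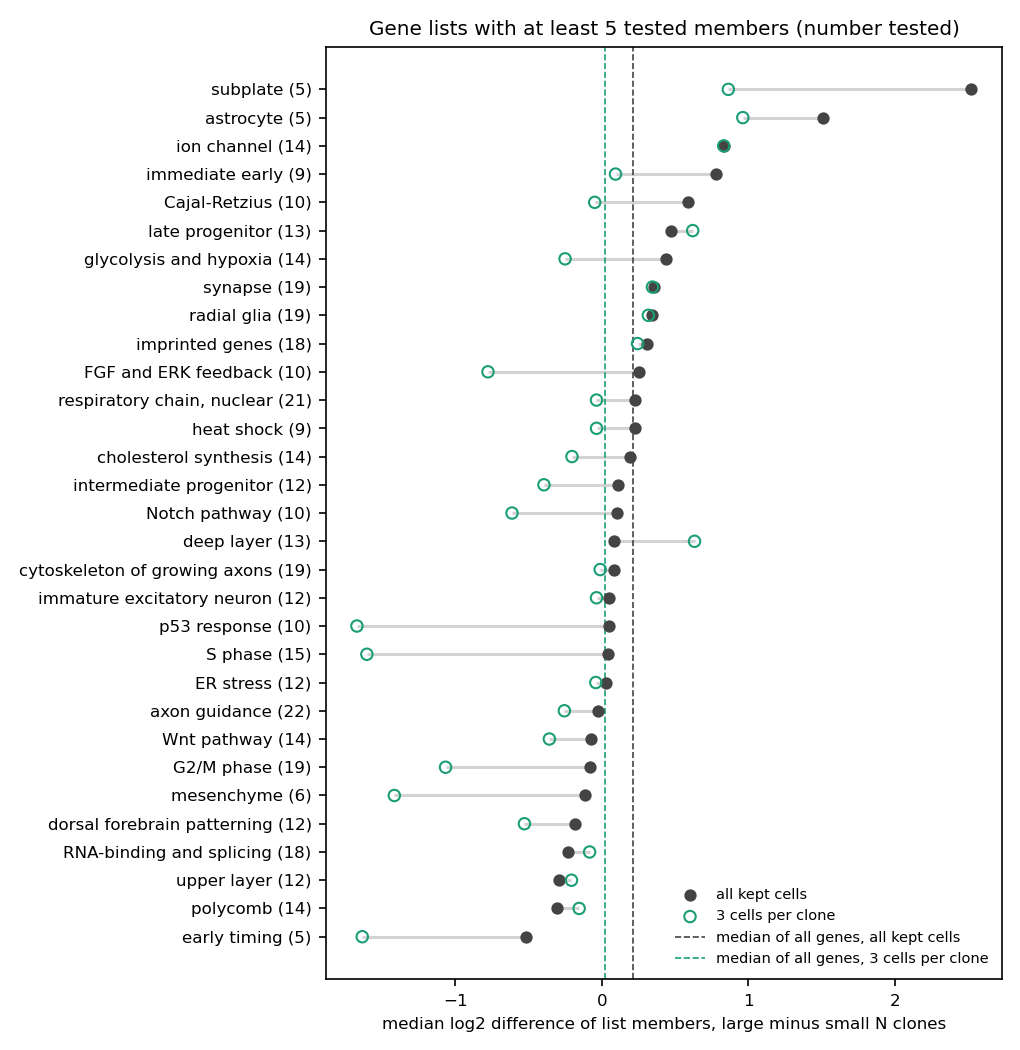
Median log2 difference (large minus small clones) of each gene list with at least 5 tested members, with all kept cells (filled) and with 3 cells drawn per clone (open); dashed lines give the medians of all tested genes, 0.21 and 0.02. Most open points lie to the left of the filled ones, and the lists of radial glia, synapse and ion channel genes have both points at nearly the same place.

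The lean of the tested genes toward large clones was smaller when 3 drawn cells were summed per clone. Over the 20 clones 60.6% of genes lay above 0 and 81.6% of those with an unadjusted p under 0.05 were higher in large clones. In the 16 clones with at least 3 kept cells, with all of their cells, the median log2 difference was 0.21, and 468 genes (3.79%) were higher and 1.17% lower at that threshold (76.3% of these higher). With 3 cells drawn from each of the same 16 clones the median was 0.02, and 1.54% of genes were higher and 1.85% lower (45.5% of these higher), with 0 genes called in either fit. The 3 cells are 1 random draw, and no other draw was made. Drawing them also lowered the depth of the sums and changed the genes tested (10559 against 12354). Which of these moved the median was not tested. The number of genes with a count in a clone sum was 14509.5 in small and 17345 in large clones (medians), but 14331 in 7 small and 13652 in 9 large clones when 3 cells were summed. Of the 434 genes with an unadjusted p under 0.05, 379 were also tested with 3 cells per clone, where 366 kept their sign and 95 kept an unadjusted p under 0.05. The drawn cells are among those from which these genes were chosen, so such agreement is in part built in and is no replication. With DESeq2's size factors in place of TMM the median was 0.13 and 73.2% of such genes were higher.

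**Figure D4:**
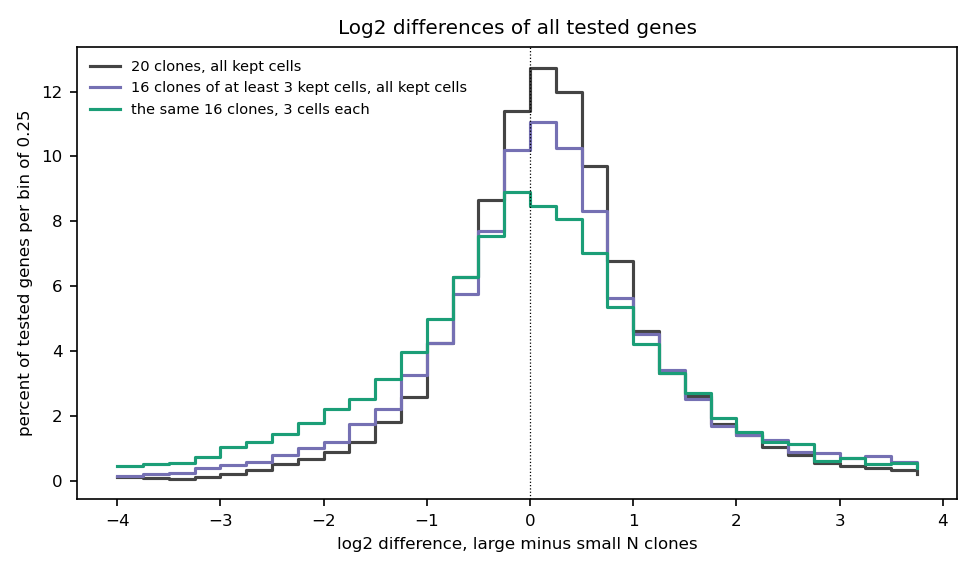
Percent of tested genes in each bin of 0.25 log2 units of the difference, large minus small N clones, for the 20 clones, for the 16 clones with at least 3 kept cells, and for the same 16 clones with 3 cells each. The medians are 0.21, 0.21 and 0.02, and the outline for 3 cells per clone is lower and wider.

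The 3 plates differed in how many genes lay on each side. On plates 1 and 2 alone edgeR called 0 genes, with 5.42% and 4.31% of genes higher and 0.943% and 0.978% lower at an unadjusted p under 0.05. On plate 3 alone, where 6 small and 2 large clones lay, it called 3 of 15562 genes (0.0193%), Swsap1, Dusp22 and Gpc3, all higher in large clones, with 338 genes (2.17%) higher and 344 (2.21%) lower at that threshold. Of the 10883 genes with a value on every plate, 1830 lay above 0 and 1001 below 0 on all of them.

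Intron counts, which come largely from unspliced RNA of the same cells, gave 0 called genes of 10156 (0%), with 433 (4.26%) higher and 1.89% lower at an unadjusted p under 0.05. Of the 434 exon genes at that threshold, 65.0% were tested in introns, where 73.05% of these had the same sign and 11.7% had an unadjusted p under 0.05. Without clone 16 the intron fit again called 0 of 10458 genes, with 419 (4.01%) higher and 155 (1.48%) lower at an unadjusted p under 0.05.

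None of 17 measures taken per clone passed the exact two-sided permutation test within plates (5880 arrangements), and adjusted p-values ran from 0.838 to 0.904. The mitochondrial share of counts was 5.18% ± 2.75 (SD, n = 10) in large and 4.29% ± 1.80 in small clones (exact permutation p = 0.556). The intron share was 26.8% ± 6.09 and 31.6% ± 8.74, with differences of 8.38, -2.34 and -11.95 percentage points on plates 1, 2 and 3. Cells had 7044 ± 2722 detected genes in large and 6959 ± 2548 in small clones, and 4651 ± 1437 and 5176 ± 1168 when thinned to 100000 counts, which left out 6 of 76 and 6 of 38 shallower cells. The plate-adjusted difference, large minus small clones, was -709 detected genes, opposite in direction to the plain means, and -666 after thinning.

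The neuron minus radial glia score, a difference of mean log2(CPM+1) over the 2 lists, was 2.28 ± 1.18 in large and 2.86 ± 1.54 in small clones (exact permutation p = 0.624). Among the other scores, S phase was 1.77 ± 1.24 against 1.66 ± 0.77 and G2/M 2.06 ± 1.27 against 1.75 ± 0.90. The plate-adjusted differences of both, which were the ones tested, lay the other way, at -0.31 and -0.12. The deep minus upper layer score was -0.33 ± 0.57 against 0.06 ± 0.72 (exact permutation p = 0.43). Cells of 1 clone correlated with each other at a mean of 0.206 in large and 0.205 in small clones, with a plate-adjusted difference of -0.0227. Green cells made up 62.3% ± 34.2 and 73% ± 26.2 of kept cells. The largest share of counts held by 1 gene ID, ENSMUSG00000119584, averaged 19.6% ± 14.3 and 21.6% ± 15.6, with the highest clones of both groups on plate 3. Its plate-adjusted difference lay the other way, at 7.47 percentage points, with 2.25, 3.47 and 15.5 on plates 1, 2 and 3 (exact permutation p = 0.16).

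**Figure D5:**
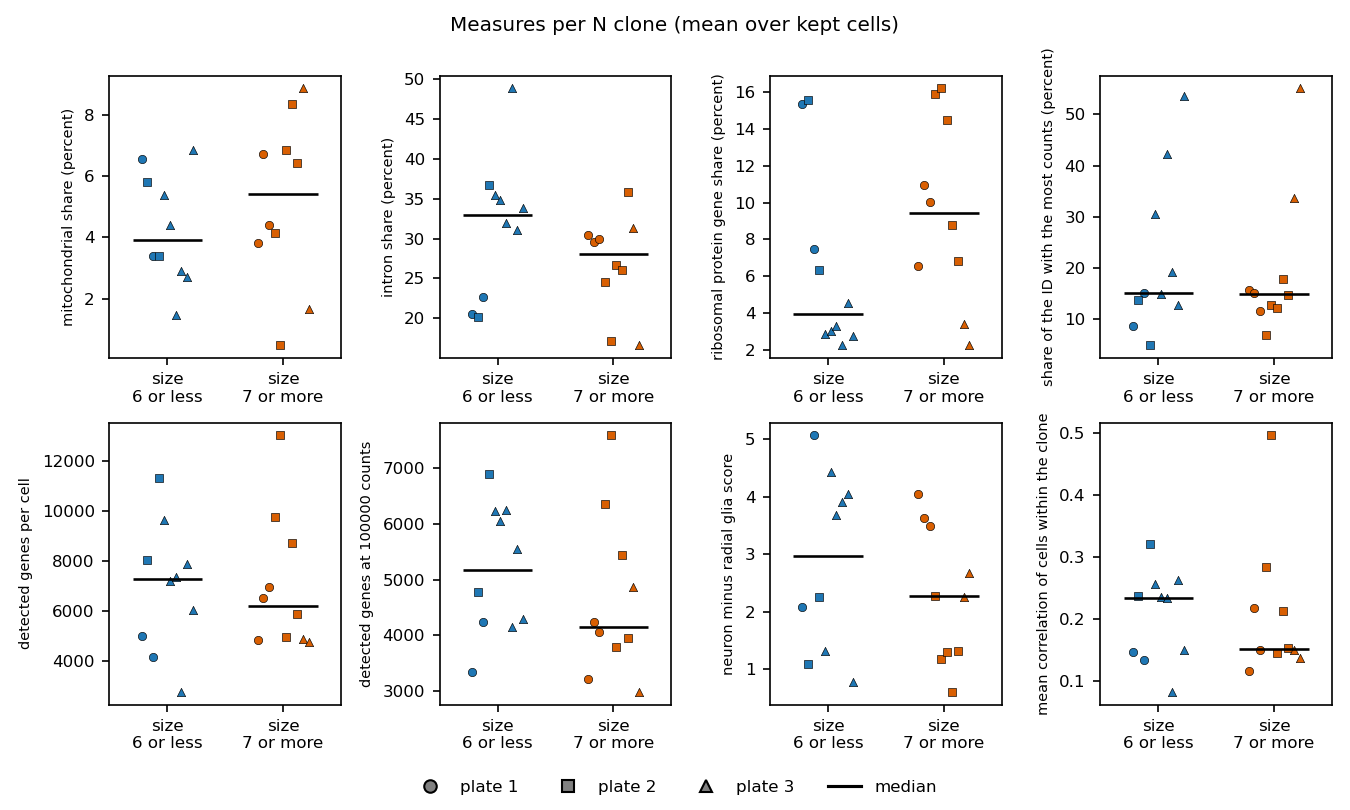
Measures per N clone, each point the mean over the kept cells of 1 clone, its shape the plate, with the median of 10 clones as a line; axes give percent, gene numbers, the score difference in log2 units or the correlation. The groups overlap in every panel, and the ribosomal protein gene share is low on plate 3 in both groups.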

How the data were processed

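The authors deposited raw counts in 2 tables, one of exons and one of introns, with 55359 Ensembl gene IDs and 287 Smart-seq3 libraries, and no scaling is recorded per the file headers. The submitters' processing notes name R 4.4.0, STAR 2.7.9a and the genome build GRCm39. The sources used here do not give the counting tool, the annotation, or whether strand and molecular identifiers were used, so the counts are read as reads, and the limit of 3 counts covers counting error only. Of the IDs 52083 matched a symbol in a table of names, and these held 82.2% of the exon counts of N cells. Coordinates are not printed, for want of an annotation of that build. Of the libraries 137 belong to N clones and 114 to the clones compared; the 150 columns of other cells were not used.

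Cells with an exon count above 0 in at least 1000 genes were kept, and counts were summed over the kept cells of each clone. Clone 45 has 3 cells labelled plate 2 and 10 labelled plate 3 (7 kept) and was put on plate 3. The test was edgeR's quasi-likelihood F test (version 4.0.16, R 4.3.3) on these sums, with TMM scaling, the filterByExpr filter by group, plate as a term and Benjamini-Hochberg adjustment over all tested genes at 0.05. The SE is the size of the log2 difference over the square root of F, and 95% intervals are normal intervals from it, so they cover the spread between clones. CPM values are exon counts per 1000000 of the TMM-scaled clone sum. For Akr1e1, for the summed cell type lists and for the limit of 3 counts they are per 1000000 of the plain clone sum. The 17 measures per clone, means over its kept cells, were compared by the plate-adjusted difference of means with an exact two-sided permutation test, labels permuted within plates. A score is the mean log2(CPM+1) over a list, with a pseudocount of 1. The test scripts were tested on simulated counts and values.

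Named genes were, per direction, the 10 of smallest p among genes counted in at least 20 kept cells and 8 clones, the 2 members of highest mean CPM of 9 lists (radial glia, intermediate progenitor, S phase, G2/M, immature excitatory neuron, deep layer, upper layer, synapse and Notch), Emx1, and every called gene where at most 20 were called. Other genes were named because they are members of a list, mostly those with an unadjusted p under 0.05, or as markers, after their values were seen. The clones, the 37 lists and the tests were chosen with earlier results of these data known. Alternatives were DESeq2 1.42.0, limma-voom (limma 3.58.1), other scalings, filters and cell weights, 3 cells drawn per clone, other size cuts, single plates and leaving out each clone. The fit of the 16 clones with at least 3 kept cells and all their cells was added after seeing the data. Results of some list members are not reported here.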

Additional observations from a re-analysis of the deposited data

Results flagged for a closer look

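The levels of the 39 named genes, as log2(CPM+1), and the 17 measures were each examined within the small and the large clones, and in 12 of these groups 1 clone stood apart from the other 9 by the gap to its neighbour over the whole range. For normally distributed values chance would set such a mark in about 1 in 20 groups. For the values used here, some of them at 0, that rate was not tested. Clone 59, the small clone with the lowest summed count, was the highest small clone for Zc3h12c at 8.33 and stood at 0 for Pcna, Hmgb2 and Lhx2. Without clone 59 the log2 differences were -1.96 for Zc3h12c, -0.10 for Pcna, 0.34 for Hmgb2 and -0.32 for Lhx2. Clone 3, also small, was the lowest for Fabp7 at 4.48, and clone 26 the lowest for Bcl11b at 5.03. Among the large clones, clone 45 was the highest for March6 at 9.92 and for Pcdhgc4 at 3.36, and clone 68 the highest for Nr4a1 at 8.91. Clone 25 was the lowest for Poldip3 at 1.71 and had the highest mean correlation of its cells at 0.496, which rests on 2 kept cells. Clone 17 was the highest for Stmn2 at 13.5.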

How the results depend on the processing

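The count of 0 genes called held in 16 of 20 settings other than leaving out single clones. It was 1 gene without clone 16, 208 with DESeq2, 15 without the filter on low counts and 3 on plate 3 alone, and leaving out each clone in turn gave 0 to 1. The cause was not tested, except that Akr1e1 entered the test without clone 16 because it then passed the filter. No paired analysis was possible because the numbers in the labels only name cells within a clone and pair no clones. No measure had an adjusted p under 0.05 in the exact permutation test in any setting. On single plates this test could decide little, because few arrangements exist there. On plate 1, with 2 small and 3 large clones, its p could not fall below 0.1. Over the settings listed next, 39 log2 values of named genes changed sign, all of genes with an unadjusted p above 0.05 except Shank1. In intron counts 9 of the 26 named genes with a value had the other sign, among them March6 and Rac3, whose exon p was under 0.05. On single plates 14 named genes had the other sign at least once, all with an unadjusted p above 0.05.

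In what follows each number is the value after a change of sign. With 3 cells per clone the log2 differences were Fabp7 -0.066, Gadd45g -1.22, Pcna -1.66, Mcm7 0.26, Hmgb2 -0.21, Stmn2 -0.020, Rprm 0.52, Gria2 0.69 and Dll1 -1.23. The measures were mitochondrial share -0.565, mitochondrial rRNA share -0.682, share of the ID with the most counts -0.319, intron share 5.79, immature excitatory neuron score 0.365, neuron minus radial glia score 0.142 and green share 1.33. For sizes of 5 or less against 8 or more they were Elavl4 -0.095, Gadd45g -0.55, Mcm7 0.36, Mapt -0.14, Gria2 0.17, Dll1 -1.30, ribosomal protein share 0.828, log10 counts per cell -0.102, S phase score 0.11 and G2/M score 0.298. With no plate term they were Mcm7 0.057, Rprm 0.12, Notch1 -1.10, share of the top ID -2.03, ribosomal protein share 3.18, detected genes 84.6, S phase score 0.106, G2/M score 0.302 and within-clone correlation 0.000346. Equal weight per cell gave Mcm7 0.40, Mapt -0.024, Bcl11b -0.71, Lhx2 0.35 and Shank1 -0.24. DESeq2 gave Elavl4 -0.088, Pcna -0.077 and Bcl11b -0.021, its size factors in edgeR -0.092, -0.073 and -0.021, and limma-voom Mcm7 0.23. Without mitochondrial rRNA and the top ID Elavl4 was -0.027 and Pcna -0.025, and with log2 size in place of groups Gria2 was 0.12 and Dll1 -0.18. Without clone 16 Elavl4 was -0.070, Bcl11b -0.060, Rprm 0.020 and ribosomal protein share 0.196. With cells of at least 2000 genes Pcna was -0.11, Gria2 0.022, log10 counts -0.154 and radial glia score -0.0166.

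Plate 1 alone gave mitochondrial rRNA share -0.0958, intron share 8.38, detected genes 1504, detected genes at 100000 counts 52.6, neuron score 1.07, neuron minus radial glia score 0.156, deep minus upper layer score 0.0528, green share 4.46 and within-clone correlation 0.0207. Plate 2 alone gave ribosomal protein share 1.48, log10 counts -0.367, radial glia score -0.069, deep minus upper layer score 0.0346 and G2/M score 0.278, and plate 3 alone radial glia score -0.0917. Leaving out each clone in turn, the differences ran as follows: mitochondrial share -0.287 to 1.48, mitochondrial rRNA share -0.333 to 1.26, mitochondrial mRNA and tRNA share 0.046 to 0.217, share of the top ID 3.36 to 9.18, ribosomal protein share -1.61 to 0.805, intron share -4.73 to 0.793, detected genes -1073 to -238, detected genes at 100000 counts -957 to -284. The scores ran from -0.0591 to 0.341 for radial glia, -0.326 to 0.188 for neurons, -0.63 to -0.0211 for their difference, -0.394 to -0.111 for deep minus upper layer, -0.503 to -0.0935 for S phase and -0.414 to 0.128 for G2/M. Log10 counts per cell ran from -0.121 to 0.165, green share from -14.0 to -1.56 and within-clone correlation from -0.0424 to -0.0134.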

Other observations

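Without the filter on low counts edgeR called 15 of 35584 IDs (0.0422%), 14 higher and 1 lower in large clones, and these were named after their values were seen. Among them, Hbb-y, an embryonic globin, was counted in 19 of 76 cells and 4 of 10 large clones and in 0 of 38 cells of small clones. Ttr, which choroid plexus makes in large amounts, was counted in 30 of 76 and 8 of 38 cells with a log2 difference of 2.90 ± 0.63, and Msx1, a patterning gene of the cortical hem and roof plate, in 16 of 76 and 2 of 38 cells (7.10 ± 1.66). Tnnt2, the troponin of heart muscle, was counted in 16 of 76 and 5 of 38 cells (4.39 ± 0.90). The levels lay in few clones: Ttr was counted in 6 clones of each group. Its median was 17.0 CPM in large and 1.89 CPM in small clones, with highest clones of 955 and 543 CPM. With the filter, Ttr had the same difference of 2.90 but an unadjusted p of 0.0976. Zfp395, a zinc finger gene, was counted in 21 of 76 and 10 of 38 cells. The ID with the most counts, ENSMUSG00000119584, was called in that fit at 0.69 ± 0.07, and at 0.65 with an unadjusted p of 0.131 when the filter was applied.

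Of the lists not described above, the 5 tested subplate genes all lay above 0 (median 2.52), where 60.6% of all tested genes did. Nr4a2, a transcription factor of early-born neurons, differed by 0.73 ± 0.55. The SEs were larger for Nxph4 (3.45 ± 3.16), St18 (3.26 ± 2.08), Kcnab1 (2.52 ± 1.74) and Tmem178 (0.33 ± 1.12). Nxph4 was at -8.30 on plate 3, St18 at -1.98 on plate 1, and Tmem178 at -0.35 and -0.30 on plates 1 and 2. Nr4a2 and Kcnab1 lay above 0 on each plate. The subplate median was 0.86 over the 3 genes tested with 3 cells per clone. The 5 tested astrocyte genes lay between 0.00 and 3.27 (median 1.51), and 6 of 10 tested Cajal-Retzius genes lay above 0 (median 0.59), where Reln, the secreted guidance protein of these neurons, differed by 0.35 ± 1.02. Imprinted genes lay above 0 in 12 of 18 cases (median 0.31), and genes of RNA binding and splicing in 6 of 18 (median -0.23).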
